A study of Zea mays with 68 samples.

Results

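Aquaporins are membrane channels that let water, and in some cases small neutral solutes, pass along its gradient. The set described here holds 6 plasma membrane intrinsic proteins (PIPs) and 1 tonoplast intrinsic protein (TIP) of maize, taken by gene identifier, which makes 7 of the 109715 gene rows in the deposited table. The PIP1 group comprises inra1(tmp) (GRMZM2G174807, also listed as PIP1-1) and PIP1-3 (GRMZM2G392975, also listed as PIP1-4). The PIP2 group comprises pip2e (GRMZM2G014914, PIP2-1), pip2b (GRMZM2G092125, ZmPIP2-2), pip2c (GRMZM2G081192, ZmPIP2-3) and pip2f (GRMZM2G047368, PIP2-6). The tonoplast member is tip4d (GRMZM2G093090, TIP4-4).

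Plant aquaporins work as tetramers in which each subunit carries its own pore. In Xenopus oocytes maize PIP2 proteins raise water permeability on their own, whereas PIP1 proteins such as PIP1-1 show little activity unless a PIP2 partner is present, with which they assemble and reach the plasma membrane. TIPs lie in the membrane of the central vacuole, the compartment whose filling drives much of plant cell growth.

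Transcript levels were measured by RNA-seq of polyA-selected RNA in the maize inbred line B73, and the labels give no treatment or age for the tissues used. Of 68 samples from 23 tissues, 11 libraries from 4 tissues had a column whose name matched the labels. Spikelets, taken mature from the ear, where they enclose the female flowers, gave 3 libraries. The vegetative meristem, sampled along with tissue around it, gave 2, and the stem internodes 7-8 and 6-7 gave 3 each. Spikelet and meristem columns were matched through initials of the tissue names, and library numbers are those of the columns. Values are FPKM, fragments scaled to transcript length and to mapped fragments, a unit that permits levels of different genes to be compared per length. Read depth is unknown. The labels do not state whether each library had plants of its own, and p-values therefore reflect the spread among these libraries alone, a spread that may be technical. In such bulk samples, fewer cells of one type and less RNA per cell cannot be told apart.

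The tissue labels were set against marker genes. Of 10 gene rows carrying names of floral MADS-box genes, 8 reached a mean of 1 FPKM in spikelets, with a summed level of 1300 to 1456 FPKM there, 16.2 to 17.9 in the meristem, 4.44 to 5.65 in internode 7-8 and 3.54 to 5.21 in internode 6-7. The 6 meristem genes did not single out the meristem, since they summed to 83.4 to 147 FPKM in spikelets, 277 to 286 in the meristem, 390 to 558 in internode 7-8 and 318 to 366 in internode 6-7. Of 6 rows for secondary wall genes, 3 had a mean under 1 FPKM in both internodes, so that list did not define the stem. The single pollen gene found, prf1, ranged from 6.27 to 33.4 FPKM in spikelets and stayed at or under 3.88 FPKM elsewhere. The 18 rows found by the first letters of light-harvesting, photosystem and Rubisco names, a pattern that also took in a few others such as psat1, summed to 690 to 703 FPKM in spikelets, 320 to 329 in the meristem, 611 to 2100 in internode 7-8 and 1712 to 2115 in internode 6-7.

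Spikelets carried the most transcript of 5 of the 7 genes, pip2e, pip2b, pip2c, pip2f and tip4d. The remaining members, both PIP1 genes, had their highest tissue mean in an internode. The meristem was lowest for inra1(tmp), PIP1-3, pip2e, pip2c and tip4d. Levels spanned a wide range: inra1(tmp) ranked 102nd of 29827 tested genes in internode 6-7, while pip2c lay below 1 FPKM in all 8 libraries of the meristem and internodes.

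**Figure D1:**
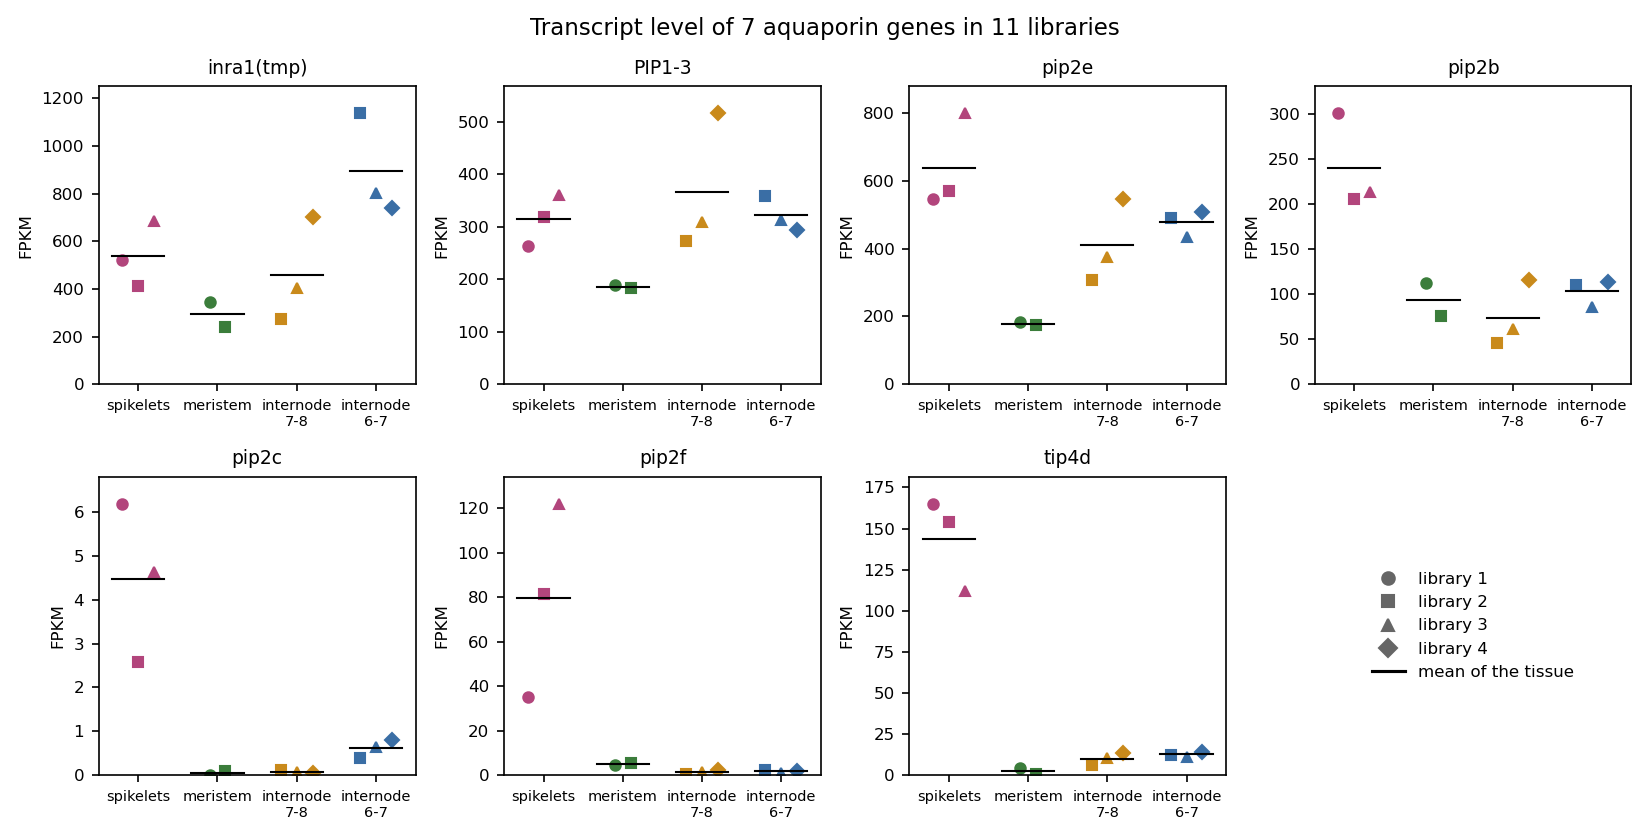
Transcript level in FPKM (linear axes from 0, scaled per gene) of the 7 aquaporin genes in spikelets, meristem, internode 7-8 and internode 6-7; each point is a library, its shape gives the library number and the bar is the tissue mean. The spikelet points of pip2b, pip2c, pip2f and tip4d stand above all 8 other points, while those of inra1(tmp) lie within the range of the internodes and those of PIP1-3 run from 263, just below the lowest internode library at 272, to 361.

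The PIP1 gene inra1(tmp) had 521, 412 and 686 FPKM in the spikelet libraries, 345 and 242 in the meristem, 275, 404 and 701 in internode 7-8 and 1138, 804 and 741 in internode 6-7. All 3 libraries of internode 6-7 lay above every other library, and the remaining tissues overlapped their neighbours in the order spikelets, internode 7-8, meristem. Its tissue means were 540 ± 138 FPKM in spikelets, 294 ± 72.4 in the meristem, 460 ± 218 in internode 7-8 and 894 ± 213 in internode 6-7 (SD, n = 3, 2, 3 and 3).

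PIP1-3, the second PIP1 gene, had 263, 318 and 361 FPKM in spikelets, 188 and 184 in the meristem, 272, 308 and 516 in internode 7-8 and 359, 312 and 293 in internode 6-7. Both meristem libraries were the lowest of all. The other 3 tissues overlapped, with means of 314 ± 49.0 FPKM in spikelets, 365 ± 132 in internode 7-8 and 321 ± 34.2 in internode 6-7 (SD, n = 3 each).

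The most abundant PIP2 gene was pip2e, whose product is an active water channel in oocytes. It stood at 545, 569 and 799 FPKM in spikelets, 184 and 174 in the meristem, 308, 374 and 545 in internode 7-8 and 491, 434 and 508 in internode 6-7. The meristem was again the lowest. Spikelets lay above internode 6-7, but their lowest library met the highest of internode 7-8 at 545 FPKM. It was the highest member in spikelets, where its mean of 637 ± 140 FPKM (SD, n = 3) ranked 230th of 29827 genes.

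For pip2b the values were 301, 206 and 213 FPKM in spikelets, 112 and 75.3 in the meristem, 45.4, 60.8 and 116 in internode 7-8 and 110, 85.3 and 114 in internode 6-7. Every spikelet library exceeded every other library, and the other 3 tissues overlapped. Spikelets averaged 240 ± 53.2 FPKM, the meristem 93.6 ± 25.8, internode 7-8 74.1 ± 37.1 and internode 6-7 103 ± 15.5 (SD, n = 3, 2, 3 and 3).

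The scarcest member was pip2c. It had 6.19, 2.59 and 4.63 FPKM in spikelets, was listed at 0 and at 0.084 in the meristem, and had 0.113, 0.0643 and 0.0478 in internode 7-8 and 0.379, 0.644 and 0.799 in internode 6-7. Spikelets stood apart from all other libraries, and internode 6-7 from internode 7-8 and the meristem, which overlapped. An exact 0 in such a table can be a failed estimate. This gene reached 1 FPKM in spikelets alone, so it entered the tests only because of the tissue in which it was high.

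Spikelets also stood apart for pip2f, at 35.2, 81.5 and 122 FPKM, against 4.41 and 5.35 in the meristem, 0.517, 1.15 and 2.30 in internode 7-8 and 2.33, 0.958 and 1.68 in internode 6-7. Of the 7 members it had the widest relative spread among spikelet libraries, with a mean of 79.6 ± 43.6 FPKM (SD, n = 3). The meristem libraries came next and lay above all 6 internode libraries, which overlapped each other. RefSeq annotation (assembly Zm-B73-REFERENCE-NAM-5.0) places pip2f and pip2e as near neighbours on chromosome 7, with 1 protein-coding gene between them. The levels of the pair differed in the internodes, with pip2e at a mean of 409 FPKM in internode 7-8 and 478 in internode 6-7, and pip2f at 1.32 and 1.66 FPKM there.

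The tonoplast gene tip4d had 165, 154 and 112 FPKM in spikelets, 4.09 and 0.786 in the meristem, 6.05, 10.1 and 13.3 in internode 7-8 and 12.2, 11.2 and 14.2 in internode 6-7. Spikelets were the highest and the meristem the lowest, both without overlap, and the internodes lay between and overlapped. Means were 143 ± 27.6 FPKM in spikelets, 2.44 ± 2.34 in the meristem, 9.82 ± 3.66 in internode 7-8 and 12.5 ± 1.55 in internode 6-7 (SD, n = 3, 2, 3 and 3).

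Summed over the 7 genes, the level was 1837, 1742 and 2297 FPKM in spikelets, 837 and 682 in the meristem, 907, 1158 and 1894 in internode 7-8 and 2114, 1648 and 1673 in internode 6-7. The meristem had the lowest sums, and spikelets and the internodes overlapped. What differed between these was the make-up. The share of the sum held by inra1(tmp) was 27.3% ± 3.24 in spikelets, 38.4% ± 3.99 in the meristem, 34.1% ± 3.41 in internode 7-8 and 49.0% ± 4.76 in internode 6-7 (SD, n = 3, 2, 3 and 3). The tonoplast gene tip4d held 7.55% ± 2.31 of the sum in spikelets, 0.302% ± 0.264 in the meristem, 0.747% ± 0.108 in internode 7-8 and 0.701% ± 0.139 in internode 6-7. The share of pip2f was 3.97% ± 1.81 in spikelets, 0.655% ± 0.182 in the meristem, 0.0926% ± 0.0328 in internode 7-8 and 0.0897% ± 0.0277 in internode 6-7.

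**Figure D2:**
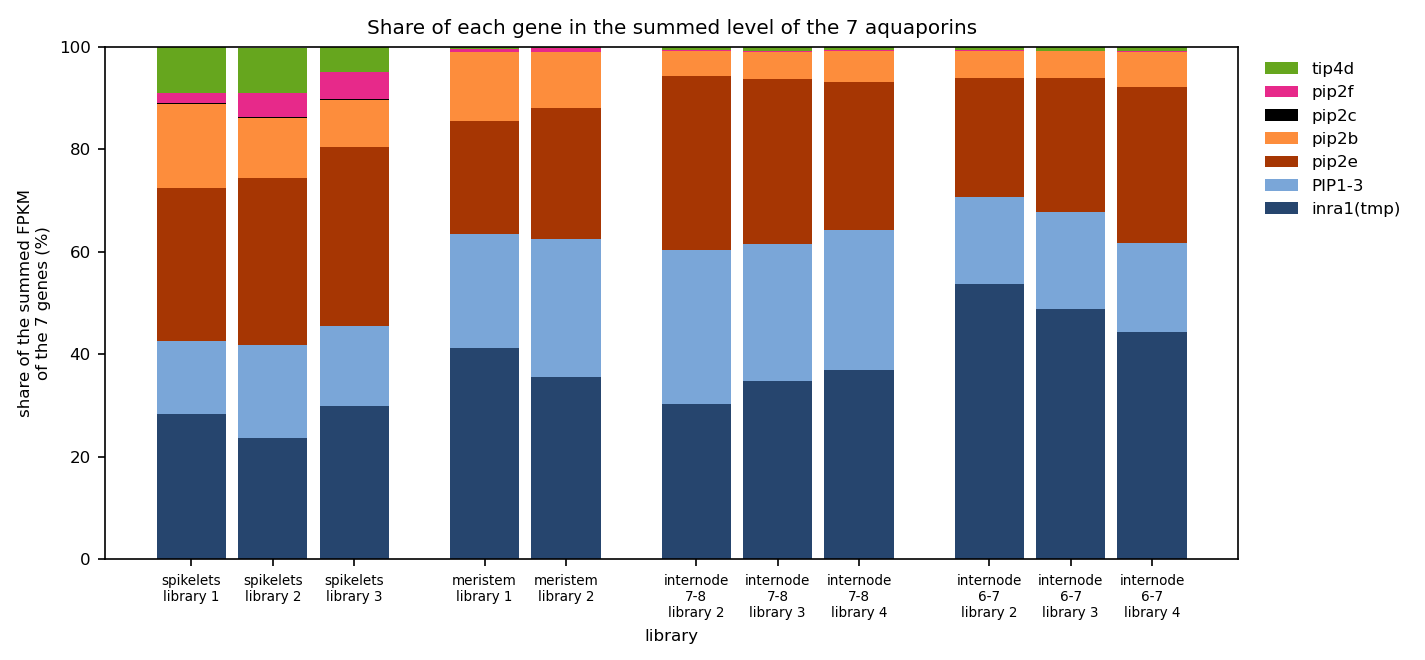
Share of each gene in the summed FPKM of the 7 aquaporins (percent, linear axis from 0), with 1 bar per library in the order spikelets, meristem, internode 7-8, internode 6-7. The blue PIP1 segments take the smallest part of the bar in the 3 spikelet libraries, where pip2f and tip4d are visible at the top, and inra1(tmp) takes its largest part, 44.3% to 53.8%, in internode 6-7.

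The balance of the PIP groups followed the same division. The 4 PIP2 genes summed to 1.13, 1.18 and 1.09 times the 2 PIP1 genes in spikelets, 0.564 and 0.597 times in the meristem, 0.647, 0.613 and 0.545 times in internode 7-8 and 0.404, 0.467 and 0.604 times in internode 6-7. Spikelets were the tissue in which these 4 PIP2 genes summed above these 2 PIP1 genes in each library, and the spikelet ratios lay above all 8 others. For the leading member of each group, pip2e over inra1(tmp), the ratio was 1.05, 1.38 and 1.16 in spikelets, 0.535 and 0.718 in the meristem, 1.12, 0.927 and 0.777 in internode 7-8 and 0.432, 0.539 and 0.685 in internode 6-7. On this measure internode 7-8 overlapped spikelets. These ratios rest on the genes chosen and were not tested. They leave out the PIP1 gene pip1-2, for which no row was matched. PIP proteins are alike in sequence, and no source used here says how the authors' counting shared reads among them, so single levels are less certain than sums.

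Spikelets were first compared with the stem, taken as the unweighted mean of both internodes. They had more pip2b, at a mean of 240 FPKM against 88.6 in the mean of the internodes, more pip2c, at 4.47 against 0.341, more pip2f, at 79.6 against 1.49, and more tip4d, at 143 against 11.2. These ratios of means were 2.71, 13.1, 53.4 and 12.8. A call required an adjusted p under 0.05 together with a log2 difference of 1 or more in size, on the scale log2(FPKM + 1), which understates the change of low genes. By that rule 4 of 7 members rose and none fell, where 12.7% of all tested genes rose and 16.8% fell. The 4 include pip2c, which was tested only through its spikelet values, so its call adds no support to the count. The median log2 difference of the members was 1.49, beside -0.26 for all tested genes. It includes pip2c, which raises it and was tested only through its spikelet values.

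The log2 differences were 1.49 for pip2b (SE 0.27, limma adjusted p = 0.001, Benjamini-Hochberg), 2.00 for pip2c (SE 0.21, adjusted p = 2.9e-05), 4.90 for pip2f (SE 0.37, adjusted p = 3.1e-06) and 3.59 for tip4d (SE 0.32, adjusted p = 9.2e-06). In each of these 4 genes all 3 spikelet libraries lay above all 6 internode libraries, a separation shown by 18.0% of tested genes in that direction. That of pip2c adds no support, since the filter kept it through its spikelet values alone. For pip2e the difference of 0.53 (SE 0.19, adjusted p = 0.035) was under the size required, and its libraries overlapped. Neither PIP1 gene passed, at -0.21 (SE 0.29, adjusted p = 0.54) for inra1(tmp) and -0.11 (SE 0.20, adjusted p = 0.66) for PIP1-3. Median-of-ratios scaling, which sets the typical gene level across libraries, shifted the all-gene median to -0.035 here, against -0.263 on the deposited values. After it pip2b stood at 1.77, pip2c at 2.20, pip2f at 5.16 and tip4d at 3.87, with all 4 calls kept, while inra1(tmp) turned to 0.07 and PIP1-3 to 0.18, both not called.

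Compared with the same stem mean, the meristem had less inra1(tmp), at 294 FPKM against 677 in the mean of the internodes, less pip2e, at 179 against 443, and less tip4d, at 2.44 against 11.2. It had more pip2f, at 4.88 against 1.49 FPKM. Thus 3 of 7 members fell and 1 rose, where 5.61% of tested genes fell and 14.0% rose, and the median log2 difference was -0.85 beside 0.16 for all genes.

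Here the log2 differences were -1.08 for inra1(tmp) (SE 0.33, limma adjusted p = 0.027, Benjamini-Hochberg), -1.28 for pip2e (SE 0.22, adjusted p = 0.0016), -1.97 for tip4d (SE 0.37, adjusted p = 0.0023) and 1.29 for pip2f (SE 0.43, adjusted p = 0.037). Both meristem libraries lay below all internode libraries for PIP1-3, pip2e and tip4d, as for 16.3% of tested genes, and above them for pip2f, as for 32.0%. The libraries of inra1(tmp) overlapped. PIP1-3 had a difference of -0.85 (SE 0.23, adjusted p = 0.015), under the size required, and after scaling it passed at -1.01 (adjusted p = 0.012). No call was made for pip2b, at 0.13 (SE 0.31, adjusted p = 0.78), or for pip2c, at -0.33 (SE 0.24, adjusted p = 0.31). The light-harvesting, photosystem and Rubisco list was also lower in the meristem, at 320 to 329 FPKM against 611 to 2115 in the internodes, and its part in these differences was not tested.

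With 2 meristem libraries, 2 of the 4 calls were lost when either was left out. The call of pip2f was lost after median-of-ratios scaling (log2 difference 1.14, adjusted p = 0.056), after quantile normalization (0.93, adjusted p = 0.12), without a filter on low values (adjusted p = 0.066) and without either meristem library (adjusted p = 0.13 without library 1 and 0.19 without library 2), and that of inra1(tmp) without a filter (adjusted p = 0.052) and without either meristem library (adjusted p = 0.066 and 0.22). Without internode 6-7 library 2 or internode 7-8 library 4, inra1(tmp) lost its call at -0.99 and -0.90, and pip2f lost its call without internode 6-7 library 3 or 4 and without internode 7-8 library 2 or 3 (adjusted p = 0.055 to 0.066). The calls of pip2e and tip4d held without each library in turn, but the difference of tip4d was -2.73 without meristem library 1 and -1.22 without meristem library 2.

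Spikelets were then set directly against the meristem. Spikelets had more pip2e, at 637 FPKM against 179 in the meristem, more pip2b, at 240 against 93.6, more pip2f, at 79.6 against 4.88, and more tip4d, at 143 against 2.44. For pip2c the means were 4.47 and 0.042 FPKM. Of the 7 members 5 rose and none fell, where 11.7% of tested genes rose and 26.7% fell. The 5 again include pip2c, tested only through its spikelet values. In all 7 genes every spikelet library lay above both meristem libraries, as for 22.1% of tested genes. The separation of pip2c adds no support, since the filter kept it through its spikelet values alone. This comparison shares its libraries with the 2 before it and adds no independent evidence.

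The log2 differences were 1.80 for pip2e (SE 0.25, limma adjusted p = 0.00018, Benjamini-Hochberg), 1.35 for pip2b (SE 0.35, adjusted p = 0.0074), 2.34 for pip2c (SE 0.27, adjusted p = 7.2e-05), 3.61 for pip2f (SE 0.48, adjusted p = 0.00015) and 5.56 for tip4d (SE 0.41, adjusted p = 4.3e-06). The PIP1 genes missed the rule, inra1(tmp) at 0.87 (SE 0.37, adjusted p = 0.068) and PIP1-3 at 0.74 (SE 0.25, adjusted p = 0.029). Scaling shifted the all-gene median to 0.006 in this comparison, against -0.359 on the deposited values, and both then passed, at 1.31 (adjusted p = 0.016) and 1.19 (adjusted p = 0.0052). Without meristem library 2, pip2b lost its call (log2 difference 1.07, adjusted p = 0.078).

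**Figure D3:**
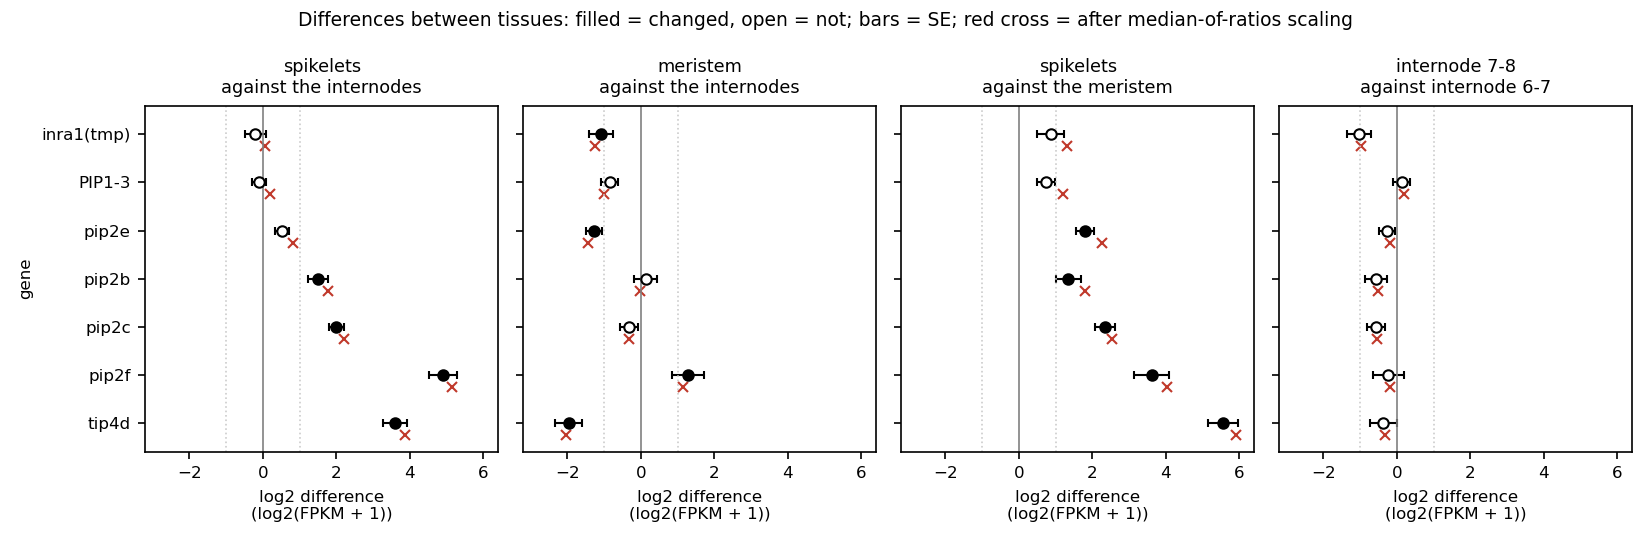
Log2 difference of each member, on the log2(FPKM + 1) scale, in the 4 comparisons, drawn as the first-named tissue minus the second; bars are standard errors, filled points passed the rule, open points did not, dotted lines mark a log2 difference of 1 either way and red crosses give the value after median-of-ratios scaling. In the comparisons of spikelets the points of pip2b, pip2c, pip2f and tip4d lie right of 1, and no member is filled between the internodes.

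Between internode 7-8 and internode 6-7 no member changed. Of all tested genes 0.124% did, or 37 genes, a count that became 7 to 161 when single libraries were left out, with 161 without internode 7-8 library 3. The member nearest to a call was inra1(tmp), at 460 FPKM in internode 7-8 against 894 in internode 6-7, with a log2 difference of -1.04 (SE 0.33, limma adjusted p = 0.28). Its 3 libraries of internode 7-8 lay below all 3 of internode 6-7, and so did those of pip2c, as for 11.1% of tested genes. Before adjustment the limma p was 0.0098 for inra1(tmp) and 0.038 for pip2c, but the log2 difference of pip2c, -0.57, was under the size required. The other differences ran from -0.57 for pip2b to 0.13 for PIP1-3, with adjusted p-values of 0.51 to 0.89.

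The libraries of internode 7-8 differed among themselves in a common direction. Library 4 was the highest and library 2 the lowest for 6 of 7 members, an order shown by 11.9% of all tested genes, and pip2c ran the other way. The ratio of the highest to the lowest library was 2.55 for inra1(tmp), 1.90 for PIP1-3, 1.77 for pip2e, 2.55 for pip2b, 4.45 for pip2f and 2.21 for tip4d in internode 7-8. In internode 6-7 it was 1.53, 1.23, 1.17, 1.33, 2.44 and 1.27 in the same order. Library 4 of internode 7-8 reached or passed the mean of internode 6-7 for 5 members, PIP1-3, pip2e, pip2b, pip2f and tip4d. The light-harvesting genes lhcb7 (GRMZM2G402936) and lhcb3 (GRMZM2G155216), a pair chosen after its values were seen, showed the same order of libraries. In internode 7-8 libraries 2, 3 and 4, lhcb7 stood at 113, 401 and 889 FPKM and lhcb3 at 37.3, 172 and 404. Whether this spread and that of the aquaporins have a common source was not tested.

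**Figure D4:**
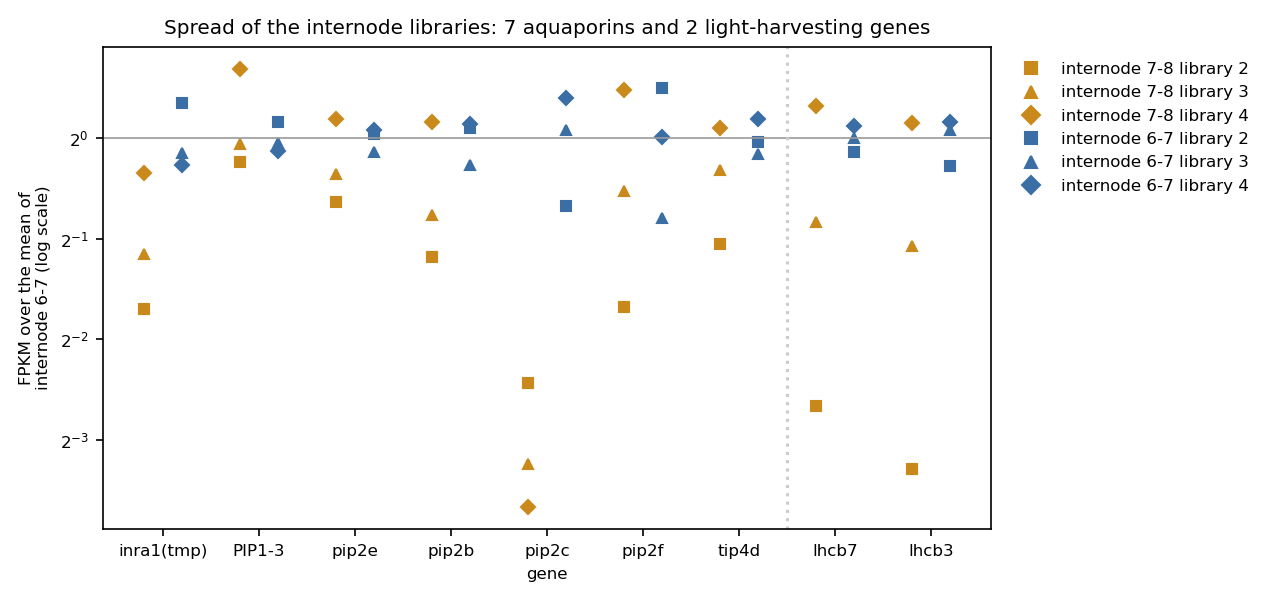
Level of each gene in the 6 internode libraries, divided by its mean in internode 6-7 (log scale, base 2), for the 7 aquaporins and, right of the dotted line, the light-harvesting genes lhcb7 and lhcb3; colour gives the internode and shape the library. For 6 of 7 aquaporins and both light-harvesting genes the internode 7-8 points run from library 2, the lowest, to library 4, the highest, while pip2c shows the reverse.

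The rest of the aquaporin family was read from names in the RefSeq table, which gave 20 further genes with a row. They comprise other PIPs, TIPs, the nodulin 26-like intrinsic proteins (NIPs), some of which carry solutes such as silicic acid, and the small basic intrinsic proteins (SIPs), found in the endoplasmic reticulum in Arabidopsis. The 7 genes held most of the transcript of all 27, at 76.4% ± 4.33 in spikelets, 78.6% ± 1.71 in the meristem, 88.9% ± 4.51 in internode 7-8 and 92.6% ± 0.906 in internode 6-7 (SD, n = 3, 2, 3 and 3). For 4 names, among them TIP1-1 and pip1-2, no row was matched, so those genes were not analysed here and the shares leave them out.

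Of the 20 genes 14 were tested. The 6 others, PIP1-5, PIP2-4, PIP2-5, TIP2-2, TIP2-3 and TIP3-2, did not exceed 1.48 FPKM in any library. In spikelets against the internodes 7 of the 14 rose and 1 fell, where 12.7% of tested genes rose and 16.8% fell, with a median log2 difference of 1.50 beside -0.26 for all genes, and 1 of the risers, TIP4-3, was tested only through its spikelet values, as was TIP1-2, which did not pass. In the meristem against the internodes 1 of the 14 rose and none fell, where 14.0% of tested genes rose and 5.61% fell. For 14 genes these counts lie near those shares, and the median was 0.01 beside 0.16. In spikelets against the meristem 6 rose, TIP4-3 and TIP1-2 among them, and 1 fell, where 11.7% of tested genes rose and 26.7% fell, with a median of 0.93 beside -0.36. Between the internodes none changed (limma adjusted p of 0.23 or more), where 0.124% of tested genes did.

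Among these, NIP1-1 (GRMZM2G041980) stood at 248 ± 47.2 FPKM in spikelets, 67.1 ± 0.616 in the meristem, 12.3 ± 2.56 in internode 7-8 and 13.8 ± 3.92 in internode 6-7 (SD, n = 3, 2, 3 and 3). Its order of tissues was that of pip2f, and it rose in both spikelets (log2 difference 4.16, limma adjusted p = 9.8e-08) and the meristem (2.31, adjusted p = 5.6e-05) against the internodes. NIP3-1 (GRMZM2G176209) rose by 2.26 in spikelets against the internodes (adjusted p = 2.3e-05), at 69.3 FPKM against 13.9 in internode 7-8 and 13.7 in internode 6-7. Of the SIP genes, SIP1-2 (GRMZM2G060922) rose by 2.57 (adjusted p = 4.2e-07). SIP1-1 (GRMZM2G113470), at 0.82 (adjusted p = 0.00042), was under the size required, though all its spikelet libraries lay above all internode libraries. SIP2-1 (GRMZM2G175038), at -0.36 (adjusted p = 0.065), did not pass, and its libraries overlapped.

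The other TIPs differed from tip4d in level. TIP2-1 (GRMZM2G027098) had 62.6, 18.2 and 31.1 FPKM in spikelets, 0.762 and 0.246 in the meristem, 0.999, 1.55 and 0.988 in internode 7-8 and 1.19, 3.59 and 2.96 in internode 6-7. Like tip4d it was highest in spikelets and lowest in the meristem without overlap, and it rose by 3.64 in spikelets against the internodes (limma adjusted p = 1.8e-05). Of the other TIP4 genes, TIP4-1 (GRMZM2G103945) rose by 1.71 with overlapping libraries (adjusted p = 0.025), TIP4-3 (GRMZM2G146627), at a mean of 2.89 FPKM in spikelets and tested only through them, rose by 1.80 (adjusted p = 0.00027), and TIP4-2 (GRMZM2G108273) did not pass, at 1.28 (adjusted p = 0.058). In internode 7-8 the order of libraries in TIP4-2 was that of pip2c and the reverse of the other members, with 43.2, 13.0 and 4.78 FPKM in libraries 2, 3 and 4. The gene that fell in both comparisons of spikelets was NIP2-2 (GRMZM2G137108), chosen after its values were seen. Against the internodes its log2 difference was -3.01 (adjusted p = 0.0013). It had 0.118 ± 0.158 FPKM in spikelets, 8.77 ± 9.55 in internode 7-8 and 12.1 ± 9.49 in internode 6-7 (SD, n = 3 each). The internode libraries of this gene thus spread widely.

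**Figure D5:**
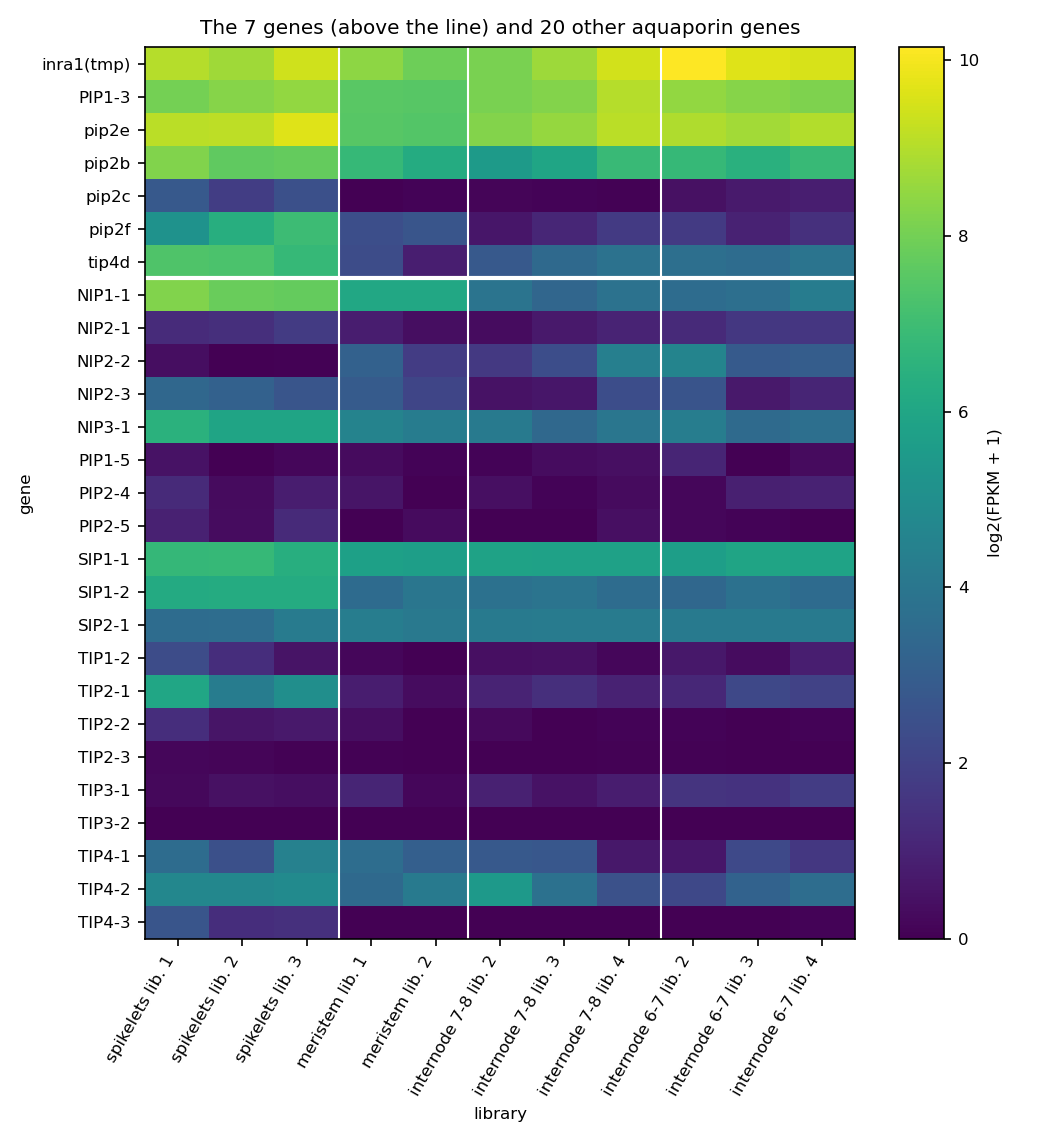
Level of 27 aquaporin genes as log2(FPKM + 1) (colour) in the 11 libraries, grouped as spikelets, meristem, internode 7-8 and internode 6-7, with the 7 genes above the white line and 20 others below it. The rows of inra1(tmp), PIP1-3, pip2e and pip2b are bright in all libraries, those of pip2f, tip4d, NIP1-1 and TIP2-1 are brightest in the 3 spikelet libraries, and PIP1-5, PIP2-4 and PIP2-5 are dark throughout.

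Proton pumps set up the proton gradients that drive solute uptake into cell and vacuole, which water follows. Of 7 genes with such names 6 were tested. None passed the rule in spikelets against the internodes, where 12.7% of tested genes rose and 16.8% fell. The median log2 difference there was -0.14 beside -0.26 for all genes. In the meristem against the internodes 3 fell, where 5.61% of tested genes fell, with a median of -1.22 beside 0.16. In spikelets against the meristem 4 rose, where 11.7% of tested genes rose, with a median of 1.22 beside -0.36. Between the internodes none changed (limma adjusted p of 0.27 or more), where 0.124% of tested genes did. The vacuolar pyrophosphatase genes vpp3 (GRMZM2G421857) and vpp2 (GRMZM2G094497) had 297 ± 24.5 and 276 ± 21.2 FPKM in spikelets, 64.6 ± 4.15 and 123 ± 15.8 in the meristem, 161 ± 20.7 and 202 ± 38.4 in internode 7-8 and 206 ± 15.0 and 294 ± 40.0 in internode 6-7 (SD, n = 3, 2, 3 and 3). In spikelets against the internodes vpp3 was at 0.71 (limma adjusted p = 0.00076), with all spikelet libraries above all internode libraries. The pump gene H+-PPase (GRMZM2G069095) was at -0.74 there (adjusted p = 0.02), with overlapping libraries. Both differences were under the size required. In the meristem against the internodes vpp3 fell by 1.48 (limma adjusted p = 5.9e-05), and vpp2 had a difference of -0.97, under the size required. The others that fell there, named because they were called, were the plasma membrane pump genes mha2 (GRMZM2G019404), by 1.75 (adjusted p = 0.0031), and mha4 (GRMZM2G006894), by 1.97 (adjusted p = 0.00084). In spikelets against the meristem vpp3 rose by 2.18 (limma adjusted p = 4.1e-06) and vpp2 by 1.16 (adjusted p = 0.00059). So did mha4, by 2.25 (adjusted p = 0.00032), and mha2, by 1.28 (adjusted p = 0.015). A gene that shares the name pma1 (GRMZM2G104325) had the highest mean of the list through 2 libraries, meristem library 1 at 2983 FPKM and internode 7-8 library 3 at 2587, beside 20.6 to 70.7 in the other 9.

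Likeness of pattern was measured as Pearson's r of log2(FPKM + 1) over the 11 libraries, with 145 tested genes that carry a formal RefSeq symbol as candidates. The libraries fall into 4 tissues, so r mainly reflects the order of tissue means and is given without a test. The gene most like pip2f was tga1 (GRMZM2G101511), a transcription factor gene of glume development, with r = 0.989. For tip4d it was sfp3 (GRMZM2G042171), with r = 0.980, and for pip2c sbp1 (GRMZM2G111136) and pht1 (GRMZM2G326707), both with r = 0.958. The widely present members were matched less closely. The highest r was 0.866 for pip2b, with COAC2 (GRMZM2G161299), 0.918 for pip2e and 0.845 for PIP1-3, both with the small GTPase gene RAB2B (GRMZM2G173878), and 0.907 for inra1(tmp), with RAB2A (GRMZM2G330430).

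Counts over all genes moved with scaling. In spikelets against the internodes 60.3% of the called genes were higher once median-of-ratios scaling was applied, against 43.0% without it, and in spikelets against the meristem 49.4% against 30.5%. In the meristem against the internodes the share was 61.1% with scaling and 71.4% without, and the all-gene median 0.036 with and 0.164 without. Quantile normalization gave 54.1%, 50.3% and 51.5% in the same order of comparisons.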

How the data were processed

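PolyA-selected RNA was sequenced from strand-keeping libraries, per the labels' protocols. The authors deposited FPKM values per gene, 1 column per library. Tools listed in the submitters' processing notes include Cufflinks 2.1.1, TopHat2 2.0.8b and Bowtie2 2.1.0. The sources used here give no genome build, annotation or settings, nor whether counting used strand. Columns were used where their name matched a tissue in the labels, 11 in all. The other 57 value columns were not used. Internode columns carry numbers other than those of the sample titles and so stand for their tissue without being tied to a titled sample. No 2 columns held identical values, and 6 of 109715 rows lacked a value.

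The tests covered the 29827 genes that reached 1 FPKM in 2 or more libraries. All 7 members passed, pip2c through spikelets alone. Tissue means were compared on log2(FPKM + 1) by limma 3.58.1 (R 4.3.3), with all 11 libraries in 1 fit, a mean-variance trend, two-sided tests and Benjamini-Hochberg adjustment over all tested genes. The internodes entered as the unweighted mean of both. On simulated data with 29827 genes, genes changed by a log2 difference of 1.5 were called in 80% of cases for spikelets against the internodes, 73% for the meristem against the internodes, 67% for spikelets against the meristem and 77% between the internodes. At a difference of 3 these shares were 99%, 98%, 94% and 100%. The noise was drawn as normal and independent, and 100 genes were changed at each size. All other genes were drawn without a tissue difference, whereas many genes differed in the data. The adjustment depends on how many genes change, so these shares need not hold for the tests of the data. Changed genes were drawn only from those with a higher mean level, so these shares do not cover low members such as pip2c. Depth is unknown, so no counting intervals are given.

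Names came from RefSeq synonyms, and all 7 identifiers matched 1 gene each. Lists were set by name, and 2 genes named sip1 and SIP-1 were left out of the aquaporins because their names do not mark that family. Named genes were the 7 members, the 8 other aquaporins and 3 pump genes with the highest mean, and the genes most like each member. Genes behind a count of 5 or fewer, and the pump gene H+-PPase, were named as well, after their values were seen. The members and lists were chosen with earlier results of these data known. Alternatives were 2 other scalings, a pseudocount of 0.1, no filter or a minimum of 5 FPKM, only the tissues compared, the column number as a block, and each library left out.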

Additional observations from a re-analysis of the deposited data

How the results depend on the processing

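Of 386 recomputed member differences, 356 kept their direction and their side of the rule, 17 lost a call, 3 gained one and 10 changed sign, all 10 of differences never called. In spikelets against the internodes pip2b, pip2c, pip2f and tip4d were called under every alternative in which they were tested, with pip2c not tested at a minimum of 5 FPKM, and inra1(tmp) turned to 0.07 and PIP1-3 to 0.18 under median-of-ratios scaling. PIP1-3 was also at 0.07 with the replicate block, and ran from -0.21 to 0.03 when single libraries were left out, above 0 without spikelet library 1 (0.01) and internode 7-8 library 4 (0.03). In the meristem against the internodes the count of 4 members became 2 without a filter and 2 with the replicate block, and 2 to 3 when single libraries were left out. There pip2b was at -0.03 after median-of-ratios scaling and ran from -0.15 without meristem library 1 to 0.41 without meristem library 2, with -0.01 without internode 7-8 library 2. Between the internodes the 37 genes called became 23 after median-of-ratios scaling, 21 at a minimum of 5 FPKM, 4 with the replicate block and 7 to 161 when single libraries were left out. There PIP1-3 ran from -0.15 without internode 7-8 library 4 to 0.32 without library 2, and pip2f from -0.52 without library 4 to 0.04 without library 2. The causes were not tested.

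The block used column numbers, which the labels do not tie to a pairing. Deviations of same-numbered libraries of the internodes correlated at -0.12, 0.202 and -0.114. For differently numbered ones the range was -0.207 to 0.256, and so few libraries cannot settle whether the numbers pair them. Under the block inra1(tmp) (-0.96, adjusted p = 0.18) and pip2e (-0.99, adjusted p = 0.039) lost their calls in the meristem against the internodes, and no other member call changed. Depth in reads is unknown, and levels below 1 FPKM, such as those of pip2c outside spikelets, are the least certain.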
